A study of Mus musculus with 20 samples.

Results

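The genes described here lie on the first 10 Mb of mouse chromosome 11 and were followed across wild-type and Il6ra-deficient CD4 T cells. A gene was included when its start in the GRCm38 annotation (GENCODE M21) lay below position 10000000 and when at least 10 reads were counted in 2 or more of the 20 libraries. Lif, Osm, Xbp1 and Uqcr10 were left out by name. Of 173 genes annotated in the window, 97 met the rule, among 16210 genes of the whole series with that many reads. Of the others, 72 had fewer reads, 28 of them none at all, and 4 were the excluded names. The members comprise 74 protein-coding genes and 23 pseudogenes, non-coding RNAs and other loci. At the edge of the read rule, Gm11960 and Igfbp3 entered with a second-highest library of 10 reads, and Gm11969 and 4921536K21Rik stayed out with 9. The window was proposed because genotype differences had already been seen in it, Camk2b among them, so the genotype differences below are a description and give no independent support to the choice.

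All cells were CD4 T cells of C57BL/6 mice with the Il17f/Thy1.1 reporter, in which cells that use the Il17f gene carry Thy1.1 on their surface. In the transfer experiment, wild-type (CD45.1) and Il6ra-/- (CD45.2) cells were cultured for 6 days in 2.5 ng/ml TGF-beta, 20 ng/ml hyper-IL-6, antibodies to CD3, IFN-gamma and IL-4, and irradiated spleen cells. RNA of Thy1.1+ cells was sequenced at this point, called before transfer (n = 2 for each genotype). Both genotypes, 200000 cells of each, were given together to Rag1-/- mice, hosts that make no lymphocytes with rearranged receptors, and after 4 weeks donor cells were sorted from the colon (n = 3 for each genotype, all named as pools in the labels). In the culture experiment, IL-17F/Thy1.1 Hz and IL6Ra-/- IL-17F/Thy1.1 Hz cells were sequenced as naive cells and as Thy1.1+ cells after 6 days in 2.5 ng/ml TGF-beta with 63 ng/ml hyper-IL-6. A further group of wild-type cells was cultured with IL-6 at 20 ng/ml, and each of these 5 groups had 2 libraries. The labels give 4 h of PMA and ionomycin for every library of the culture experiment. Hyper-IL-6 joins IL-6 to the soluble form of its receptor, and it signals through gp130 in cells that lack the membrane receptor. The ages of the mice, and whether the replicates of the culture experiment came from separate animals, are not given in the sources used here, so the p-values rest on the spread among libraries, which may be technical.

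Genes that sit next to each other on a chromosome are inherited together as a block. Neighbours in such a block need share neither function nor control, and the window holds kinases, neurofilament, splicing, replication, metabolic and membrane traffic genes. Within it, Camk2b encodes a chain of calcium/calmodulin-dependent protein kinase II, an enzyme known best from neurons, and Nefh encodes the heavy chain of neurofilaments. Neither of the loci by which the genotypes were defined lies here, since Il6ra is on chromosome 3 (89864059-89913196) and Ptprc, the CD45 gene, is on chromosome 1 (138062861-138175708). In the transfer experiment the Il6ra genotype and the CD45 allele cannot be told apart, and no file used here tests whether the lines differ in DNA sequence in the window.

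The 250 bases before the RefSeq start are shown for Camk2b, which was higher in the deficient cells, and for Slc35e4, a solute carrier family 35 gene that was lower in naive deficient cells. They come from RefSeq (GRCm38.p6), at chr11:6065749-6065998 (minus strand, within an intron of 1 longer GENCODE transcript of Camk2b) and chr11:3914665-3914914 (minus strand, upstream of the annotated gene), and CG dinucleotides are in capitals.
Camk2b: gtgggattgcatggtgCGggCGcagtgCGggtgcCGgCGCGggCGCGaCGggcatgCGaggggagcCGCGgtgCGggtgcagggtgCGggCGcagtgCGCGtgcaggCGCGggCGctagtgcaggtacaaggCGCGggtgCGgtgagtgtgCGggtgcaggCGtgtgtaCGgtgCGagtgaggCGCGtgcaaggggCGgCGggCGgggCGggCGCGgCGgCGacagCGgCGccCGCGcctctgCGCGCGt
Slc35e4: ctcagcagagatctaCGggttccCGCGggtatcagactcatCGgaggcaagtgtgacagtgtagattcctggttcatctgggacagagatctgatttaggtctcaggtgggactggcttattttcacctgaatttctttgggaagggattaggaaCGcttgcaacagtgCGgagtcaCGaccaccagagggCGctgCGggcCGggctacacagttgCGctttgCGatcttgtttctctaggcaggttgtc
The Camk2b stretch held 44 CG dinucleotides, more than 99.5% of the 32851 promoters in the table, whose median was 6. The Slc35e4 stretch held 12, more than 66.5% of promoters. The STAT-type motif TTC-NNN-GAA, which reads the same on both strands, was found in neither stretch and in 7.02% of all promoters of that length. Of the 97 members, 63 had an entry in this table.

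Libraries held between 12718633 and 23745060 gene counts in the transfer experiment and between 20160774 and 46848016 in the culture experiment. Levels are counts scaled to the library total (CPM) after TMM scaling within each experiment and are not comparable between the 2 experiments. After a filter on low counts, 85 members were tested among 14926 genes in the culture experiment and 81 among 14225 genes in the transfer experiment, 72 of them in both. Adcy1, Gm11960 and Mir3060 were tested in neither. A member that passed the filter only because 1 group was high had to differ, so the counts of tested members are no share of all 97. CD4 T cell markers summed to between 1344 and 5941 CPM in the 20 libraries. Reads of Il6ra remained in the deficient libraries (199 and 213 CPM in naive cells against 270 and 421 in wild-type ones). The sources used here do not give the deleted part of the gene, so its reads do not check the genotype.

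In 2 cultured groups, several genes of the window stood far apart between the 2 libraries of the same label, which bears on every genotype result of the cultures. Nefh stood at 74.9 CPM in the library labelled Il6ra-deficient hyper-IL-6 replicate 1 and at 75.7 CPM in the library labelled wild-type IL-6 replicate 2. The other 4 cultured libraries, replicate 2 of the deficient cells among them, lay between 2.29 and 2.91 CPM. For Nefh, libraries of 1 labelled group thus lay far apart, and libraries of different labels lay together. Il6ra was at 32.3 and 31.8 CPM in the 2 deficient libraries, 39.8 and 39.2 CPM in wild-type hyper-IL-6 cells and 37.1 and 30.6 CPM with IL-6. The 2 deficient libraries lay close together for Il6ra, and IL-6 replicate 2 lay below the other wild-type libraries. As said above, these reads do not check the genotype of a library.

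To read each library, 6 members were taken whose naive genotypes did not overlap and differed at least 2-fold, with a mean of at least 1 CPM over the cultured libraries. They were Mtfp1, Nefh, Tcn2, 8430429K09Rik, Slc35e4 and Pisd-ps1. Their log2 shift from the wild-type hyper-IL-6 mean, counted positive in the direction of naive deficient cells, had a median of 1.43 in deficient replicate 1 and of 1.63 in IL-6 replicate 2. The median was 0.024 in deficient replicate 2 and 0.07 in IL-6 replicate 1. In both shifted libraries 4 of the 6 genes exceeded 0.3, whereas Mtfp1 did not and Pisd-ps1 lay below 0. Nefh, Tcn2 and Slc35e4 overlapped between the genotypes before transfer and in the colon, as given below. Their naive difference thus need not hold in cultured cells. The level filter used the libraries that were read, and 8430429K09Rik met it only through the 2 libraries in which it was high. With the filter on the wild-type hyper-IL-6 libraries alone, set after seeing the data, the other 5 members remained. Their medians were 1.17 in deficient replicate 1 and 1.36 in IL-6 replicate 2, with 3 of 5 over 0.3 in each, against 0.01 in deficient replicate 2 and 0.04 in IL-6 replicate 1.

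Genes outside the window gave a weaker reading of the same kind. The 7 genes that separated the genotypes by at least 1.5-fold in naive, before-transfer and colon cells alike had median shifts of 0.41 in deficient replicate 1 and 0.3 in IL-6 replicate 2. The medians were -0.01 in deficient replicate 2 and -0.03 in IL-6 replicate 1. Synj2, a phosphoinositide phosphatase gene on chromosome 17, moved by 1.72 and 1.78 in the first pair of libraries and by 0.50 and 0.41 in the second. AC149090.1, on an unplaced scaffold, moved by 0.85 and 0.88 against -0.01 and 0.00, and Gm47283, on chromosome Y, by 4.60 and 3.57 against -0.25 and 0.08. Nav1, Cd86 and Gm4070 did not separate the libraries in this way. The libraries are kept in their labelled groups below. Counts for the naive and cultured genotypes, for hyper-IL-6 against IL-6 and for deficient culture changes are given with and without 2 libraries. These are the libraries labelled deficient replicate 2 and IL-6 replicate 2, left out together after these values were seen. Changes of single genes and of role groups from naive to cultured cells are given only with both libraries kept.

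**Figure D1:**
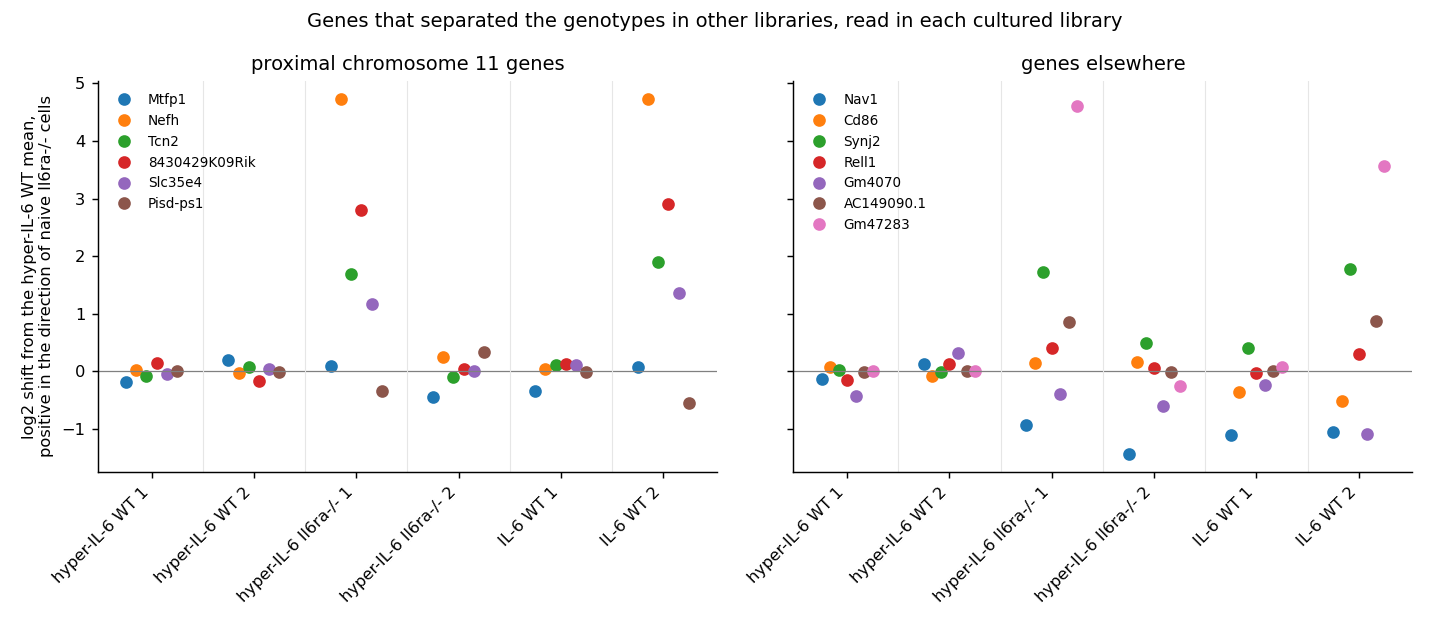
Log2 shift of each gene in each of the 6 cultured libraries from the mean of the 2 wild-type hyper-IL-6 libraries (0.5 CPM added), positive in the direction of naive deficient cells, for the 6 members (left) and the 7 genes elsewhere (right). Nefh lies at 4.72 and 4.73 in the libraries labelled Il6ra-deficient hyper-IL-6 replicate 1 and wild-type IL-6 replicate 2, and at 0.255 or lower in the others.

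In naive CD4 T cells, several members of the window stood far apart between the genotypes, in both directions. Camk2b was counted at 30.6 and 29.9 CPM in the deficient libraries and at 2.30 and 3.52 CPM in the wild-type ones. Nefh was at 8.68 and 8.53 CPM in deficient cells and at 0.24 and 0.42 CPM in wild-type cells. The non-coding 8430429K09Rik was at 3.00 and 1.88 CPM against 0.49 and 0.17 CPM. For all 3 genes both deficient libraries were above both wild-type libraries.

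Pisd-ps1 (chr11:3125904-3131004), a transcribed pseudogene of the phosphatidylserine decarboxylase gene Pisd, was at 56.2 and 49.3 CPM in deficient and at 10.2 and 11.0 CPM in wild-type naive cells. It was higher by 2.31 ± 0.24 on the log2 scale (SE, n = 2 per genotype; edgeR quasi-likelihood test, Benjamini-Hochberg adjusted p = 0.0211) and was the 1 gene that passed an adjusted p of 0.05 in this comparison (0.0067%). Its adjusted p was 0.0627 without wild-type naive replicate 1 and 0.213 without deficient naive replicate 1 (edgeR). Its transcript is 94.1% identical to that of Pisd over 1128 bases and 94.7% identical to that of Pisd-ps2, so reads may be divided between these copies, which was not tested.

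Lower levels in naive deficient cells were found for the 2 neighbours Slc35e4 (chr11:3907021-3914664), whose promoter stretch is shown above, and Tcn2 (chr11:3917192-3932159), whose starts lie 0.01 Mb apart. Slc35e4 was at 0.52 and 0.16 CPM in deficient cells against 5.96 and 7.33 CPM in wild-type cells. Tcn2, which encodes the vitamin B12 carrier transcobalamin, was at 11.0 and 10.5 CPM against 34.9 and 35.9 CPM. The genotypes did not overlap for either gene. Emid1 was at 9.50 and 6.18 CPM against 18.6 and 16.6 CPM, again without overlap.

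On the log2 scale these naive differences were 3.37 ± 0.69 for Camk2b (adjusted p = 0.202), -4.38 ± 0.70 for Slc35e4 (adjusted p = 0.0943) and -1.72 ± 0.58 for Tcn2 (adjusted p = 0.378), each with its SE, n = 2 per genotype and edgeR's test. Nefh differed by 4.65 ± 2.20 (edgeR adjusted p = 0.499). The spread in these tests is shared with the cultured groups, in which the 2 libraries described above stand apart. They were doubted on Nefh, Slc35e4 and Tcn2 among others, so leaving them out takes away spread of these genes by choice. The calls without them are not independent of that doubt, and the IL-6 library is left out in both fits that follow. Without those 2 libraries, Nefh (log2 difference 4.64), Pisd-ps1 (2.31), Slc35e4 (-4.38) and Tcn2 (-1.72) passed, with edgeR adjusted p of 0.00109, 0.00109, 0.0109 and 0.00916. They were 4 of the 8 genes that passed among 15394 (0.052%), and Camk2b had an adjusted p of 0.0507. The same 4 members passed when deficient cultured replicate 1 was left out in place of replicate 2, again among 8 genes (0.0518%).

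Smaller differences were spread over the window. At an unadjusted p of 0.05, 23 of 85 members differed between the naive genotypes, against 10.4% of all genes, and 52 members did not overlap, against 37.5% of all genes. Kremen1, a receptor that binds Dickkopf proteins in Wnt signalling, was at 122 and 130 CPM in deficient and at 66.0 and 82.5 CPM in wild-type cells (log2 difference 0.76 ± 0.13, edgeR adjusted p = 0.114). Limk2, a kinase of the actin cytoskeleton, was at 142 and 139 CPM against 97.0 and 94.4 CPM. Pla2g3, a secreted phospholipase gene, had 16 and 11 reads in deficient cells and none in either wild-type library, and Gm11956 had none in deficient cells and 11 and 12 reads in wild-type cells. Most members were flat, with 56 of 85 within 0.5 on the log2 scale (65.9%, against 81.0% of all genes).

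**Figure D2:**
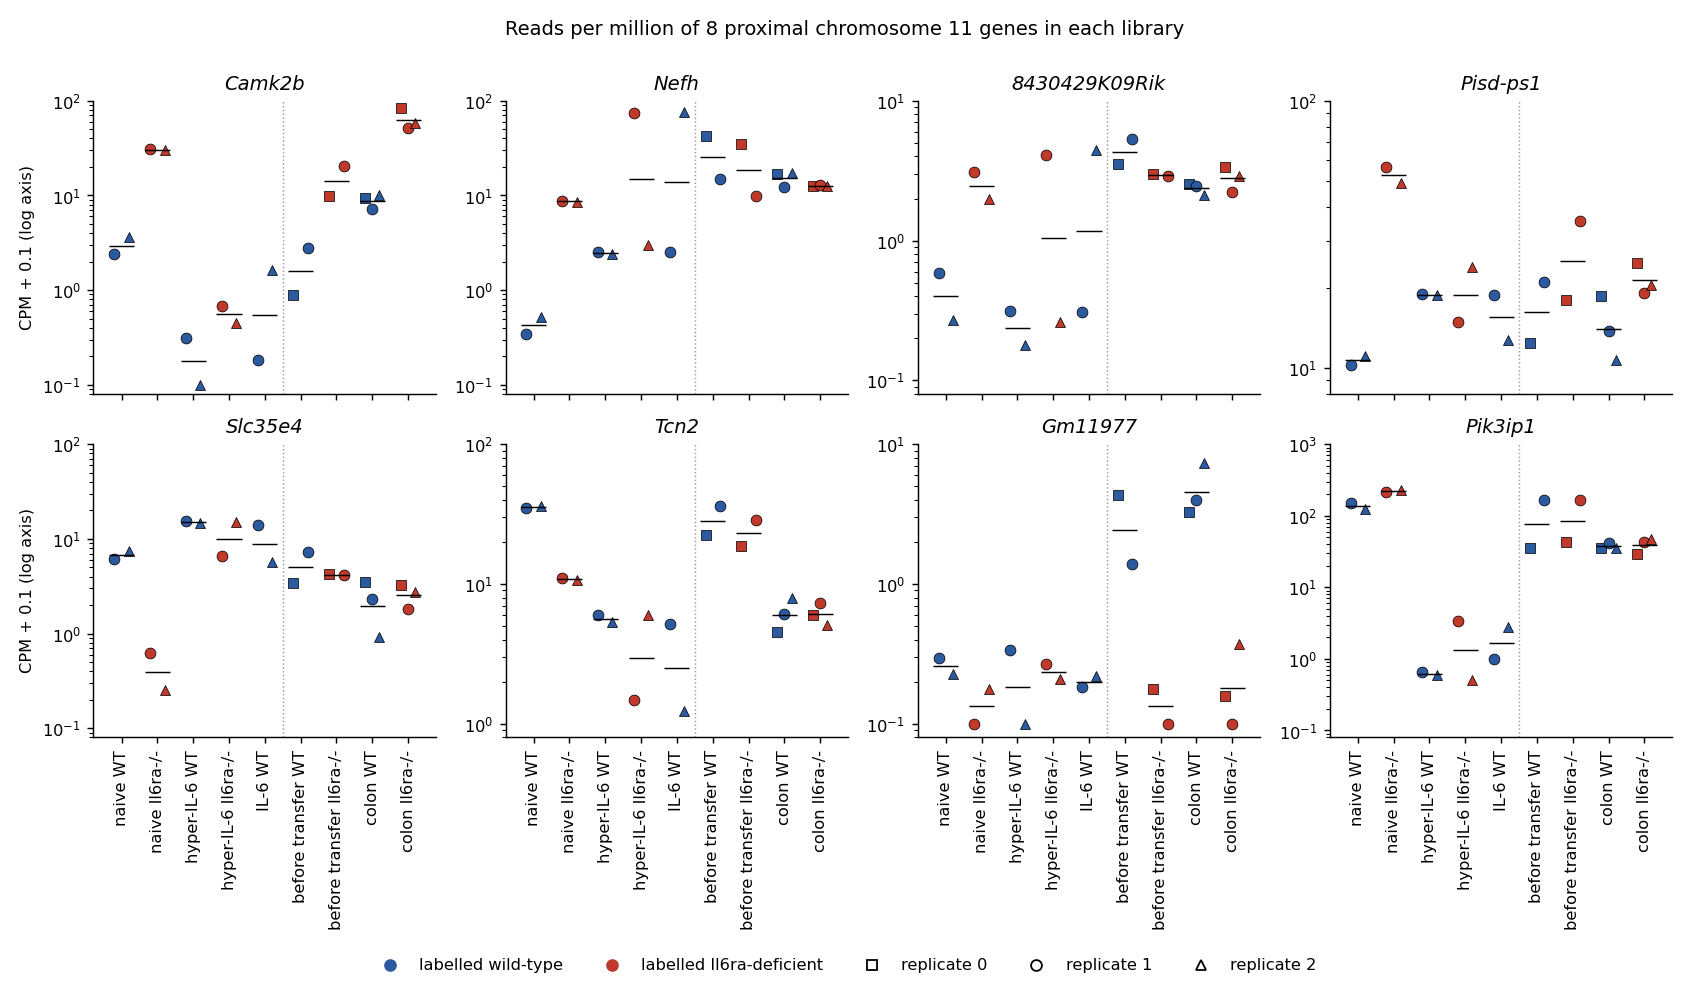
CPM plus 0.1 on a log axis for 8 members in every library. Points are libraries coloured by labelled genotype, the shape gives the replicate number, bars are geometric means, and the dotted line parts the culture experiment from the transfer experiment, which were scaled separately. Camk2b is higher in each deficient group than in the matching wild-type group, whereas Nefh, 8430429K09Rik, Slc35e4 and Tcn2 part the 2 naive genotypes and single cultured libraries.

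In the hyper-IL-6 cultures the genotype difference depended on which deficient library was read. With all libraries as labelled, 0 of 85 members and 0 of 14926 genes (0.0%) passed with edgeR. At an unadjusted p of 0.05 it was 4 members and 351 genes (2.35%), and DESeq2 called 0 members and 3 genes. Pik3ip1, an inhibitor of PI3K signalling that naive T cells make in quantity, was at 3.33 CPM in deficient replicate 1 and at 0.41 CPM in deficient replicate 2, with the wild-type hyper-IL-6 libraries at 0.55 and 0.50 CPM. The wild-type IL-6 libraries were at 0.90 and 2.67 CPM. For Pik3ip1 the deficient replicates thus lay further apart than the group means.

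Tcn2 and Slc35e4 showed the same split downwards. Tcn2 was at 1.37 and 5.94 CPM in the deficient libraries, at 5.86 and 5.24 CPM in the wild-type hyper-IL-6 libraries and at 5.09 and 1.13 CPM in the IL-6 libraries. For Slc35e4 the values were 6.43 and 14.98 CPM, 15.6 and 14.6 CPM, and 13.99 and 5.57 CPM. Nudcd3, a neighbour of Camk2b, was at 123 and 181 CPM in deficient cells, at 187 and 186 CPM in wild-type hyper-IL-6 cells and at 194 and 116 CPM in IL-6 cells. In each of these genes the low values belong to deficient replicate 1 and IL-6 replicate 2.

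Without the library labelled deficient replicate 2 and the library labelled IL-6 replicate 2, 2 members passed, and no other gene did (0.013% of 15394 genes). Nefh then differed by 4.97 toward deficient cells on the log2 scale and Pik3ip1 by 2.64. This leaves 1 deficient library, which is assumed to vary like the other groups. The doubt rested on Nefh among others, so its pass is no independent test. The size for Nefh follows from keeping deficient replicate 1 and leaving out deficient replicate 2. Without deficient replicate 1 in its place, Nefh differed by 0.31 ± 0.31 and Pik3ip1 by -0.36 ± 0.39, and 0 genes passed (4.9% at an unadjusted p of 0.05, edgeR). Camk2b, high in naive deficient cells, had between 0 and 52 reads in any cultured library. It was at 0.59 and 0.35 CPM in deficient cells, 0.21 and 0 CPM in wild-type hyper-IL-6 cells, and 0.08 and 1.54 CPM in IL-6 cells.

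The comparison of hyper-IL-6 with IL-6 in wild-type cells holds 1 of the doubted libraries. It gave 0 members and 0 genes (0.0%) past the threshold with edgeR, 4 members and 1.51% of genes at an unadjusted p of 0.05, and 0 members and 1 gene with DESeq2. Nefh had the fitted difference of -4.04 ± 1.48 there, which rests on IL-6 replicate 2. Without that library and the doubted deficient one, again 0 genes passed with edgeR and 1.93% had an unadjusted p under 0.05.

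In cells before transfer, no member passed. Camk2b was again high in deficient cells, at 9.71 and 20.5 CPM against 0.80 and 2.68 CPM in wild-type cells, without overlap. Gm11977 (chr11:6781678-6783138), a processed pseudogene 0.812 Mb from the Camk2b start, had 2 and 0 reads in deficient cells and 90 and 26 reads in wild-type cells. Nefh did not follow the naive pattern, at 34.6 and 9.74 CPM in deficient and 42.9 and 14.8 CPM in wild-type cells, and neither did Tcn2, at 18.6 and 28.4 CPM against 22.2 and 36.3 CPM. Slc35e4 stood at 4.12 and 4.02 CPM against 3.33 and 7.24 CPM. The genotypes overlapped for these 3 genes.

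With edgeR, 0 of 81 members passed before transfer, and 1 gene of 14225 did (0.00703%). At an unadjusted p of 0.05 it was 3 members, namely Camk2b, Gm11977 and the receptor-modifying protein gene Ramp3, and 345 genes (2.43%), and DESeq2 called 2 members and 24 genes. Camk2b differed by 3.12 ± 0.53 on the log2 scale (SE, n = 2 per genotype; edgeR adjusted p = 0.219). With the replicate number as a block within each stage, Camk2b differed by 3.21 ± 0.29 and passed (edgeR adjusted p = 0.0127), 1 of 5 genes that did (0.0351%). The labels tie replicate numbers to experiments or pools, but that colon pools 1 and 2 match between the genotypes is taken from their numbers. Gm11977 had an adjusted p of 0.456 without the block and 0.0952 with it (edgeR). Without wild-type replicate 0, 4 members and 1152 genes passed.

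In colon cells, Camk2b was the 1 member that passed. Its level was 83.7, 51.1 and 58.4 CPM in deficient cells and 9.35, 7.12 and 9.90 CPM in wild-type cells from the same hosts. Every deficient library was above every wild-type one. It was higher by 2.88 ± 0.41 on the log2 scale (SE, n = 3 per genotype; edgeR adjusted p = 0.0251), among 22 genes of 14225 that passed (0.155%). The call was lost without any 1 of the 6 colon libraries, with adjusted p between 0.0892 and 0.180 and log2 differences between 2.64 and 3.02 (edgeR). With the block within stage, the difference was 2.85 ± 0.22 and the adjusted p 0.0024 (edgeR).

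Gm11977 was at 0.06, 0 and 0.27 CPM in deficient colon cells (1, 0 and 4 reads) and at 3.16, 3.87 and 7.27 CPM in wild-type colon cells (45, 87 and 105 reads). The groups did not overlap (edgeR adjusted p = 0.0754, and 0.0116 with the block within stage, where 94 genes passed, 0.661%). In the culture experiment it had at most 10 reads in any library of either genotype and was not tested. Its transcript is 93.4% identical to that of Rbbp5, a histone methyltransferase subunit gene at chr1:132477365-132505659, over 1476 bases. Rbbp5 lies 5.58 Mb from Ptprc, the gene of the CD45 marker that parts the genotypes in this experiment, and differed by 0.11 ± 0.22 between colon genotypes (log2, edgeR adjusted p = 1.0). Whether reads of Rbbp5 were counted for Gm11977 was not tested.

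The members that had parted the naive genotypes did not pass in colon cells. Nefh was at 12.4, 12.7 and 12.6 CPM in deficient and 16.7, 12.3 and 17.4 CPM in wild-type cells, and Tcn2 at 5.95, 7.25 and 5.00 CPM against 4.43, 5.96 and 7.82 CPM. Slc35e4 was at 3.18, 1.73 and 2.67 CPM against 3.45, 2.23 and 0.83 CPM. These 3 genes overlapped between genotypes, with log2 differences of -0.30 ± 0.46, 0.00 ± 0.31 and 0.23 ± 0.53. Pisd-ps1 was at 24.7, 19.0 and 20.3 CPM against 18.5, 13.7 and 10.7 CPM, higher in every deficient library but with a log2 difference of 0.58 ± 0.32 (edgeR adjusted p = 1.0). Of the 81 members, 66 were within 0.5 on the log2 scale between colon genotypes (81.5%, against 79.9% of all genes), and 10 did not overlap (12.3%, against 15.8% of all genes).

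Among markers of other cell types, the CD8 and NK sum lay apart between the colon genotypes, while the myeloid and epithelial sums overlapped. The B cell sum also lay apart, at low levels (1.73 to 2.14 CPM in deficient and 1.16 to 1.69 CPM in wild-type cells). Markers of CD8 and NK cells (5 of 5 detected) summed to between 103 and 172 CPM in deficient and between 44.1 and 52.8 CPM in wild-type colon cells. Myeloid markers (8 of 8 detected) summed to between 92.1 and 323 CPM against 125 and 336 CPM, and epithelial markers (7 of 7 detected) to between 104 and 239 CPM against 132 and 491 CPM. Before transfer the CD8 and NK sum overlapped, between 30.2 and 46.7 CPM in deficient and between 44.4 and 99.9 CPM in wild-type cells (4 of 5 detected, Ncr1 at 0). The part of other cells in the colon values was not tested, and in bulk libraries fewer cells of a type and less RNA per cell cannot be told apart.

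**Figure D3:**
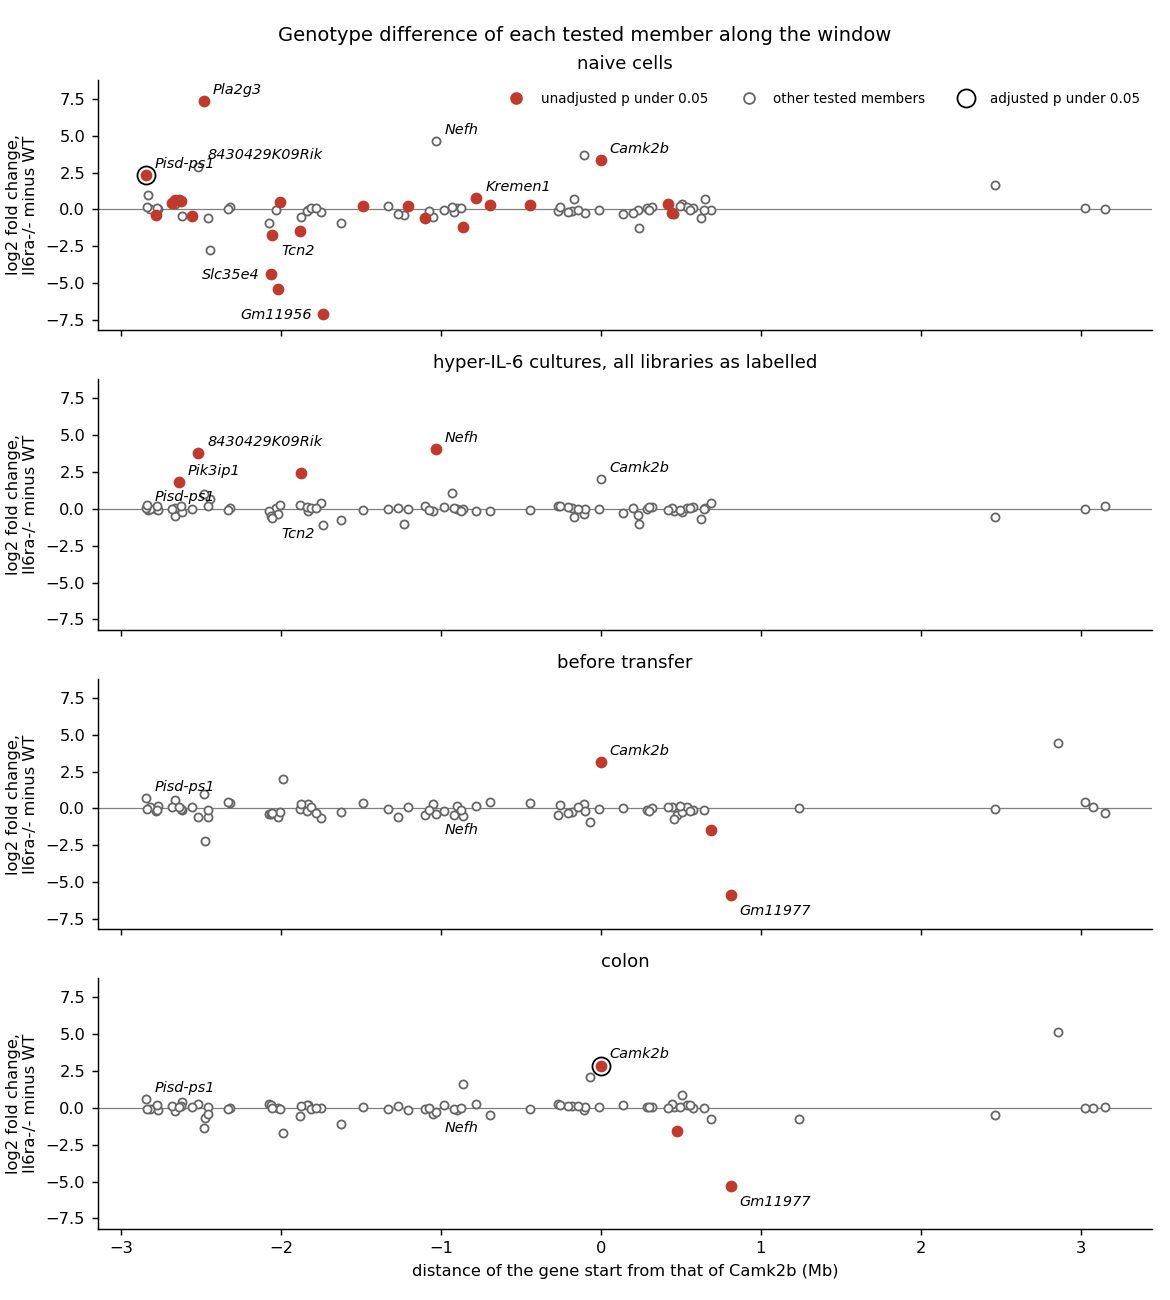
Log2 fold change of Il6ra-deficient over wild-type cells for every tested member against the distance of its start from that of Camk2b, in 4 comparisons. Filled points have an unadjusted p under 0.05 and ringed points an adjusted p under 0.05 (edgeR): Pisd-ps1 at 2.31 in naive cells and Camk2b at 2.88 in colon cells.

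Side by side, Camk2b was higher in deficient cells by 3.37 ± 0.69 (naive), 2.03 ± 1.27 (hyper-IL-6 cultures, where few reads fell on it), 3.12 ± 0.53 (before transfer) and 2.88 ± 0.41 (colon) on the log2 scale. The genotype difference of Camk2b in colon cells minus that before transfer was -0.24 ± 0.63 (edgeR adjusted p = 0.982). For the cultures minus naive cells it was -1.34 ± 1.65 (edgeR adjusted p = 0.820), with a wide error.

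Of all members, 0 passed the test of colon minus before-transfer genotype differences with edgeR (0.0% of all genes; 1 member and 2.65% of genes at an unadjusted p of 0.05, 0 members and 12 genes with DESeq2). For the cultures minus naive cells it was also 0 with edgeR (0.0% of all genes). At an unadjusted p of 0.05 it was 15 members and 8.49% of genes, and 3 members and 45 genes passed with DESeq2. Both fits that follow leave 1 deficient cultured library. Pisd-ps1 is among the members by which the cultured libraries were read, at 14.7 CPM in deficient replicate 1 and 23.7 CPM in replicate 2. Leaving out replicate 2 keeps the lower value, so the result for Pisd-ps1 is not independent of that choice. Without the 2 doubted libraries, Pisd-ps1 was the 1 gene of 15394 to pass the second test (0.0065%), with a log2 value for this change in the genotype difference of -2.67 ± 0.21 (adjusted p = 0.0227, edgeR). With deficient replicate 1 left out in place of replicate 2, 0 members and 0 of 15438 genes passed that test (21 members and 1650 genes at an unadjusted p of 0.05, edgeR).

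Close to Camk2b, Pold2 (a DNA polymerase delta subunit) and Ykt6 (a SNARE of vesicle fusion) lie on the one side, and Nudcd3, Rps15a-ps6 and A730071L15Rik on the other. None of these 5 members passed in a genotype comparison. In colon cells Pold2 was at 30.0, 30.0 and 29.6 CPM in deficient and 33.8, 27.9 and 24.9 CPM in wild-type cells. Ykt6 was at 105, 122 and 118 CPM against 102, 113 and 115 CPM. Both genes overlapped between the genotypes, and in naive cells Pold2 differed by -0.21 and Ykt6 by -0.04 on the log2 scale. Nudcd3 had a mean of 95.1 CPM in deficient and 120.6 CPM in wild-type naive cells, and split the cultured libraries as given above. In colon cells its mean was 116.0 CPM in deficient and 101.7 CPM in wild-type cells. At the end of the window, Upp1 (uridine phosphorylase) differed by 0.09 and Gm11992 by 0.01 between colon genotypes. The next tested genes beyond it, Zpbp at 11279626 and Spata48 at 11462094, differed by 0.14 ± 0.40 and -1.02 ± 0.89 in colon cells and by 0.01 ± 0.36 and 0.41 ± 0.48 in naive cells.

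Along the rest of chromosome 11, read in steps of 10 Mb, the share of tested genes with an unadjusted p under 0.05 between naive genotypes ran from 3.03% to 20.0%. In the window, with the excluded genes counted, it was 27.0% (24 of 89), and in the genome outside the window 10.3%. In the cultures with all libraries as labelled it was 5.62% in the window (5 of 89) and 2.33% outside it, and other steps of chromosome 11 reached 7.35%. Without the 2 doubted libraries the window held 30 such genes of 95 (31.6%) in naive cells and 18 of 95 (18.9%) in the cultures, against 9.20% and 1.99% outside it. These libraries were doubted on genes of the window, so the 18.9% is not independent of that choice. With deficient replicate 1 left out in place of replicate 2, 4 of 87 members (4.6%) had such a p in the cultures, against 4.9% of all genes. In the transfer experiment the window did not stand out, at 3 of 86 genes (3.49%) both before transfer and in the colon, with 2.42% and 4.56% outside it. These shares are a description, because the window was chosen with the differences known.

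Members were grouped by role to describe their levels and how they changed with culture and transfer, 2 changes that the choice of the window did not use. Per kilobase of exon, the mean level over all libraries ran from 0.0145 to 89.6 CPM, with a median of 4.88. Dbnl (an actin-binding adaptor) at 89.6 and Ewsr1 (an RNA-binding protein) at 84.9 CPM per kilobase were the highest, and Camk2b was at 1.77.

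Culture with hyper-IL-6 changed most members, as it changed most genes. In wild-type cells 64 of 85 members passed with edgeR (75.3%, against 70.3% of all genes), 32 higher and 32 lower, with 36.8% and 33.5% of all genes in these directions. In deficient cells 59 passed (69.4%, against 72.0% of all genes), 31 higher and 28 lower, with 37.5% and 34.4% of all genes. The deficient count was 58 of 87 members both without the 2 doubted libraries (60.7% of all genes) and with deficient replicate 1 left out in place of replicate 2 (62.3%). The median log2 change of members was -0.12 and -0.04, and that of all genes was 0.04 in both genotypes. Of the members that passed, 55 did so in both genotypes, which is 85.9% of those in wild-type and 93.2% of those in deficient cells, and 54 of the 55 moved the same way. The exception was Pisd-ps1, which rose by 0.82 in wild-type and fell by 1.45 in deficient cells on the log2 scale, from naive levels that differed.

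Among signalling genes (17 members, 14 tested), 3 rose and 9 fell in wild-type cells and 3 rose and 10 fell in deficient cells. Camk2b fell by 4.66 ± 1.04 and 6.00 ± 0.82 on the log2 scale, from the naive levels given above. Pik3ip1 went from 153 and 124 CPM in wild-type naive cells and 214 and 230 CPM in deficient naive cells to at most 3.33 CPM in any cultured library. Ccm2, a scaffold of endothelial and MAP kinase signalling, fell by 2.33 and 2.25, and Mtmr3, a phosphoinositide phosphatase, by 0.64 and 0.93. Nf2, the merlin tumour suppressor, rose by 0.88 and 0.68. Emid1, at 6.18 to 18.6 CPM in naive libraries, had no read in any of the 6 cultured libraries.

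The list of metabolic genes (13 members, 11 tested) gave 5 higher and 2 lower in wild-type and 6 higher and 3 lower in deficient cells. It includes Nudcd3 and Aebp1, which are not metabolic enzymes, so its counts are not of metabolism alone. Upp1, which releases uracil from uridine, had no read in the 4 naive libraries and stood at 37.9 and 36.6 CPM in wild-type and 33.3 and 51.1 CPM in deficient hyper-IL-6 cultures, and at 46.0 and 28.8 CPM with IL-6. Tbrg4, which acts on mitochondrial RNA, rose by 1.11 and 1.12, and Nudcd3 by 0.63 and 0.68. Ogdh, a subunit of the 2-oxoglutarate dehydrogenase complex, fell by 0.36 and 0.44. Aebp1 had no read in 3 of 4 naive libraries and 2 in the fourth, and reached 0.59 to 1.02 CPM in the hyper-IL-6 cultures. Slc35e4, counted in this list, rose by 1.18 in wild-type and 5.07 in deficient cells.

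RNA processing and translation genes (13 members, 12 tested) had 9 higher and 2 lower in both genotypes, with a median log2 change of 0.67 and 0.83. Sf3a1, a subunit of the U2 spliceosome particle, rose by 1.04 and 0.98, and Eif4enif1, which binds the cap-binding factor eIF4E, by 1.12 and 1.05. Ewsr1 stayed between 446 and 515 CPM in all 10 libraries and did not pass. Replication, repair and chromatin genes (11 tested) had 7 higher and 3 lower in wild-type and 5 higher and 3 lower in deficient cells. Pold2 rose by 1.14 and 1.36 and the chromatin ATPase gene Morc2a by 1.46 and 1.33. Purb and Zmiz2 rose by 0.59 and 0.45 in wild-type cells and had changes of 0.26 and 0.03 in deficient cells, which did not pass. Traffic and cytoskeleton genes (12 tested) had 4 higher and 6 lower in wild-type and 4 higher and 4 lower in deficient cells. Smtn, a smoothelin of the contractile cytoskeleton, went from between 0.10 and 0.85 CPM in naive libraries to between 9.88 and 12.1 CPM in hyper-IL-6 cultures. Ap1b1, a clathrin adaptor subunit, fell by 1.03 and 0.85, Dbnl by 0.56 and 0.42, and the lymphocyte myosin gene Myo1g by 0.43 and 0.54.

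**Figure D4:**
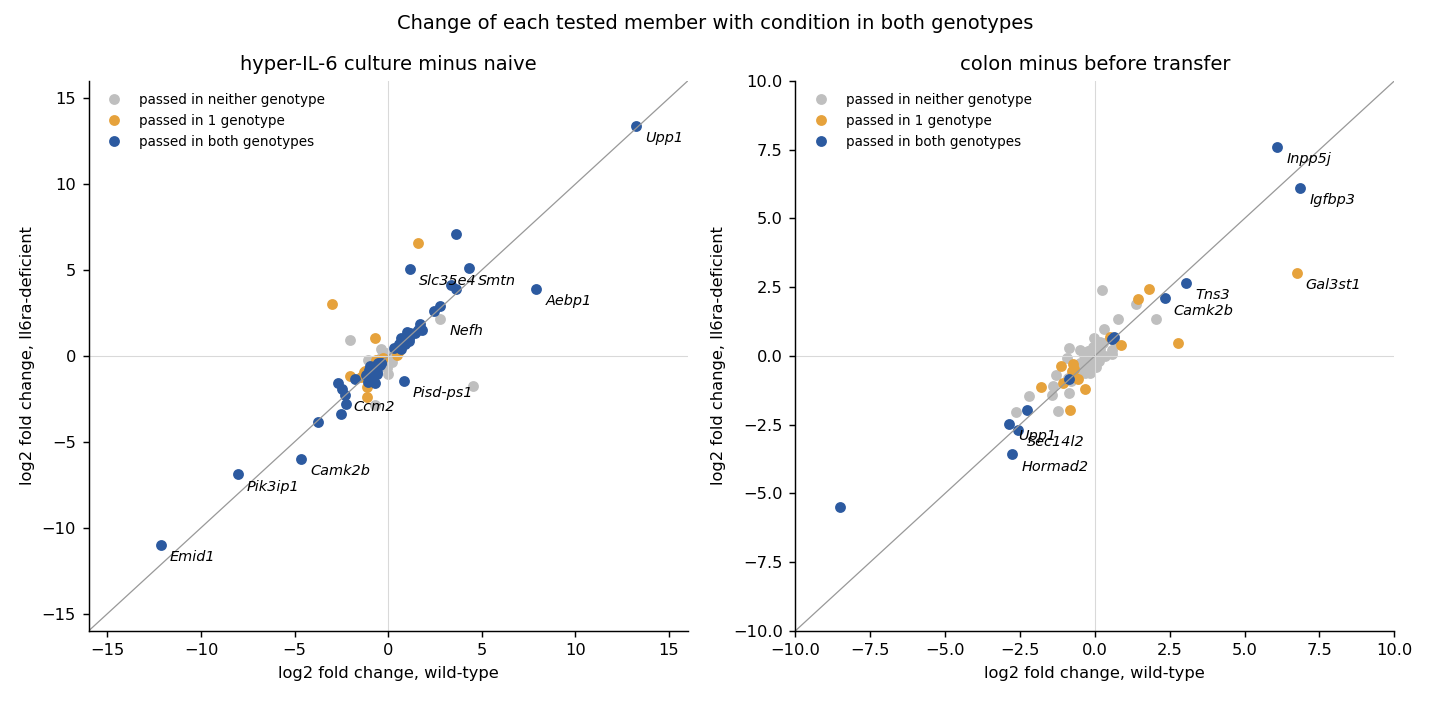
Log2 fold change of each tested member in wild-type (x axis) and Il6ra-deficient cells (y axis), for hyper-IL-6 culture over naive cells (left) and for colon over before transfer (right), with the line of equal change. Colours give how many genotypes passed an adjusted p of 0.05 (edgeR), and most passing members lie near the line; fitted folds of genes with no read in a group, such as Upp1, Emid1 and Igfbp3, are no measured size.

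From before transfer to the colon, 21 of 81 members passed in wild-type cells (25.9%, against 32.9% of all genes), 9 higher and 12 lower, with 17.1% and 15.8% of all genes in these directions. In deficient cells 19 passed (23.5%, against 27.0% of all genes), 9 higher and 10 lower, with 13.8% and 13.2% of all genes. The counts moved by over 1.5 times when single libraries were left out, and the share of all genes fell with them. In wild-type cells the count was 11 without before-transfer replicate 1 (22.6% of all genes), 12 without colon replicate 2 (25.4%) and 13 without colon replicate 0 (27.5%). In deficient cells it was 9 without before-transfer replicate 1 (19.4%) or colon replicate 2 (18.5%) and 10 without colon replicate 0 (20.1%) or 1 (19.1%). In both genotypes 12 members passed, all in the same direction, which is 57.1% of those in wild-type and 63.2% of those in deficient cells.

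Camk2b rose from before transfer to the colon in both genotypes, by 2.34 ± 0.50 in wild-type and 2.10 ± 0.46 in deficient cells on the log2 scale, so that wild-type colon cells at 7.12 to 9.90 CPM came near to deficient cells before transfer at 9.71 and 20.5 CPM. Inpp5j, an inositol polyphosphate phosphatase, had at most 1 read in any library before transfer and was at 3.37, 2.09 and 0.83 CPM in wild-type and 1.33, 1.32 and 1.23 CPM in deficient colon cells. Tns3, a focal adhesion protein, rose by 3.05 and 2.66. Igfbp3, which binds insulin-like growth factors, had no read before transfer and between 3 and 28 reads in the 6 colon libraries. Gal3st1, the sulfatide-making enzyme, had 13, 5 and 15 reads in wild-type and 9, 0 and 1 reads in deficient colon cells, and passed in wild-type cells alone; its genotype difference in change had an edgeR adjusted p of 0.953. Myeloid and epithelial markers were higher in the colon libraries, as given above, than before transfer, where they summed to between 15.5 and 58.9 CPM and between 3.92 and 22.95 CPM.

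Members that fell in the colon included Upp1, from 72.4 and 58.4 CPM to 10.6, 8.19 and 8.03 CPM in wild-type cells and from 39.9 and 65.6 CPM to 8.09, 10.1 and 10.4 CPM in deficient cells. Hormad2, a meiotic chromosome protein, fell by 2.76 and 3.58, and Sec14l2, a lipid-binding protein, by 2.58 and 2.69. Tcn2 fell by 2.27 and 1.96. Among role groups in wild-type cells, 4 signalling genes rose and 1 fell of 15 tested, and 2 genes of the metabolic list rose and 4 fell of 11. Of 11 replication and chromatin genes none rose and 3 fell. RNA processing genes gave 1 higher and 1 lower of 13, and traffic genes 1 higher and 2 lower of 11. In deficient cells the counts were 6 higher and 2 lower for signalling, 1 and 3 for metabolism, 0 and 2 for replication and chromatin, 1 and 0 for RNA processing and 1 and 1 for traffic.

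The genes left out by name lie in the same window. Lif, encoding the cytokine leukemia inhibitory factor, was at 282 and 181 CPM in deficient and 132 and 144 CPM in wild-type hyper-IL-6 cultures and at 183 and 263 CPM with IL-6, so the 2 highest values again belong to deficient replicate 1 and IL-6 replicate 2. In colon cells it was at 10.9, 12.5 and 9.86 CPM in deficient and 20.2, 14.4 and 14.3 CPM in wild-type cells. Osm, Xbp1 and Uqcr10 differed by less than 0.6 on the log2 scale between naive genotypes and did not pass.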

How the data were processed

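For each of 20 libraries the authors deposited raw gene counts, in whole numbers. R 3.4.3, DESeq2 1.18.1, HTSeq 0.7.2, STAR 2.5.3 and SAMtools 0.1.18 are named in the submitters' processing notes, which give GRCm38 as the build. The strand setting and annotation release are not given in the sources used here, so counts of the 57 members that overlap another annotated gene are uncertain. Positions came from GENCODE M21.

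Each experiment was fitted separately with edgeR 4.0.16 in R 4.3.3 (quasi-likelihood test with TMM scaling, filterByExpr by group, and no factor but group), and p-values were adjusted by Benjamini-Hochberg over all genes tested, with 0.05 as the threshold. The common biological coefficient of variation was 0.309 in the transfer and 0.124 in the culture experiment, and the test was tested on simulated data. The SE of an edgeR log2 difference is its absolute value divided by the square root of the quasi-likelihood F statistic, and is approximate. Libraries of a group differed beyond sampling noise (mean chi-square per gene at least 6.38). In the transfer experiment labels tie replicate numbers to experiments or pools, and deviations of same-numbered libraries of the 2 genotypes correlated at 0.401 before transfer and at 0.646, 0.303 and 0.156 in the colon. That colon pools 1 and 2 match between the genotypes is taken from their numbers. Transcript identities came from a blastn search.

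The members, the role lists and the tests were chosen with earlier results of these data known. Named genes are members that passed in 2 genotype comparisons, the up to 6 largest changes in each direction that passed in a genotype comparison (3 in others), Camk2b with 3 neighbours on each side, the edge of the window and the 3 highest members of each role list. A gene that this rule names is not reported here. Nefh, 8430429K09Rik, Tcn2, Kremen1, Limk2, Ramp3, Pla2g3, Gm11956 and Gm11977, and the genes outside the window, were named after their values were seen. Alternatives were RLE size factors, no filter, a stricter filter (50 reads in 2 libraries), DESeq2 1.42.0, fits on the compared groups alone, the replicate block, a term for experiment, and leaving out each library. The fits without the doubted libraries and with the block within stage, and the second level filter for reading the cultured libraries, were added after seeing the data.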

Additional observations from a re-analysis of the deposited data

How the results depend on the processing

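The number of members that pass in the genotype comparisons moved with the processing. The 2 libraries in doubt were doubted on genes of the window, so the counts without them are not independent of that choice. In colon cells (1 as reported, with 0.155% of all genes) it was 2 in 5 alternatives, the second gene being Gm11977, and the share of all genes rose as well. These were no filter on low counts (0.524% of all genes), the replicate block (0.274%), the block within stage (0.661%), DESeq2 (0.926%) and the compared groups only (0.857%). In each fit that left out 1 library the colon count was 0, with at most 8 genes passing. Before transfer (0 as reported) it was 2 without a filter (0.0742% of all genes), 2 with DESeq2 (0.105%) and 1 with the replicate block within stage, and between 0 and 4 with 1 library left out, the 4 where 7.71% of all genes passed. In naive cells (1 as reported) it was 15 without a filter (1.85% of all genes passed), 5 with DESeq2 (0.775%), 4 with the compared groups only (0.0389%), 4 in both fits without doubted cultured libraries and 0 with the replicate block, and between 0 and 7 with 1 library left out, the 7 without wild-type replicate 2, where 5.78% of all genes passed. In the cultures (0 as reported) it was 5 without a filter (0.312%) and 2 without the 2 libraries in doubt, and 0 in each fit with 1 library left out. For hyper-IL-6 against IL-6 it was 5 without a filter (0.152%). The genotype difference of cultures minus naive cells gave 7 without a filter (1.14%) and 3 with DESeq2 (0.399%). That of colon minus before transfer gave 0 in each alternative that kept 2 or more libraries in every group. Fits that left 1 library in a group are not counted for these 2 differences, though members passed in some of them.

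From before transfer to the colon the wild-type count of 21 was 12 with the compared groups only (23.3% of all genes) and between 11 and 29 with 1 library left out, and the deficient count of 19 lay between 9 and 14. The culture counts of 64 and 59 stayed within 1.5 times in every alternative, between 50 and 56 and between 53 and 55 with 1 library left out. In the culture experiment the shared numbers name replicates only, and the replicate block moved no count there by over 1.5 times but that of naive cells, where Pisd-ps1 had an edgeR adjusted p of 0.0929. Over 42 gene results and 495 alternative fits, 430 kept direction and side of the threshold, 38 passed where the reported fit did not, 21 no longer passed and 6 reversed. The reversed ones all lie in the cultured genotype: Tcn2 at 0.10 without deficient replicate 1, with or without the doubted IL-6 library, Pik3ip1 at -0.36 in the same 2 fits, and Pisd-ps1 at -0.36 without the 2 libraries in doubt and -0.35 without deficient replicate 2. With 1 library left out, these genes ran from -2.02 to 0.10 (Tcn2), from -0.36 to 2.65 (Pik3ip1) and from -0.35 to 0.34 (Pisd-ps1). At these depths genes with a few reads, such as Pla2g3 and Gm11956, have errors too wide for a verdict. With 50 reads in place of 10, 72 members meet the rule.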
